A study of Mus musculus with 6 samples.

Results

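The globins and the erythroid genes described here are 8 genes that were taken from the table by their symbols, out of 57180 genes in all: the alpha globins Hba-a1 and Hba-a2, the beta globins Hbb-bs and Hbb-bt, and Alas2, Slc4a1, Klf1 and Car2. They were measured by RNA sequencing in NK cells (CD3- NK1.1+) sorted from fibrotic mouse livers into a fraction with surface CD36, the CD36+ NK cells, and a fraction without it, the CD36- NK cells, with 3 libraries of each. The mice were male, of 6 to 8 weeks. Wild-type C57BL/6J is the strain that the methods name. All animals behind both fractions had received CCl4, a liver toxin, as 2.5 ml/kg of a 20% solution in olive oil, given 2 times a week over 4 weeks, with the livers collected 48 h later, so no library comes from a liver without CCl4. Total RNA of 400 ng went into each library. The sources do not say whether animals were pooled or whether the 2 fractions of a replicate came from the same animals, so the p-values measure the spread between these libraries, which may in part be technical.

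Red blood cells carry oxygen on haemoglobin, which is built from alpha and beta globin chains that each hold a heme. Maturing erythroid cells make globins and heme together, under transcription factors such as GATA1 and KLF1, and their globin mRNA persists in reticulocytes and young red cells after the nucleus has been lost. NK cells are lymphocytes and are not known for making globins.

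The promoters of these genes are shown because most of them shared short motifs known from erythroid promoters, which played no part in choosing the genes. The 250 bases before the start site were searched on both strands for CACCC (the kind of site that KLF1 binds), GATAA (GATA factors), CCAAT and TATAA, in the RefSeq promoter table of GRCm38.p6, in which 6 of the 8 members were found. CACCC was in 6 of 6 members and in 52.0% of all 32851 promoters searched, GATAA in 6 of 6 members and in 22.6% of all promoters, CCAAT in 5 of 6 and 33.8%, and TATAA in 5 of 6 and 22.8%. A match describes the letters and not a bound site. The last 150 bases before each start site are given 5′ to 3′ on the strand of the gene, with these motifs on either strand in capitals, for Hba-a1 (chr11:32283522-32283671, plus strand), Hbb-bs (chr7:103827929-103828078, minus strand), Hbb-bt (chr7:103813924-103814073, minus strand), Alas2 (chrX:150547267-150547416, plus strand) and Klf1 (chr8:84901832-84901981, plus strand).
Hba-a1: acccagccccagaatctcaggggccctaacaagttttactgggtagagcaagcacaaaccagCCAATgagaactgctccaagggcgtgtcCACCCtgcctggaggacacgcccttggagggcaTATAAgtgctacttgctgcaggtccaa
Hbb-bs: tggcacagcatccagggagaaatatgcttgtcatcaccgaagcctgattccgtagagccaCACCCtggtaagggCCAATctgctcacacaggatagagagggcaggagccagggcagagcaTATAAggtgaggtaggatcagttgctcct
Hbb-bt: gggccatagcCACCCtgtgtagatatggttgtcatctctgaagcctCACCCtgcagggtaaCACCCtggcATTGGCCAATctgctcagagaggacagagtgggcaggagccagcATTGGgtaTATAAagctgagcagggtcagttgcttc
Alas2: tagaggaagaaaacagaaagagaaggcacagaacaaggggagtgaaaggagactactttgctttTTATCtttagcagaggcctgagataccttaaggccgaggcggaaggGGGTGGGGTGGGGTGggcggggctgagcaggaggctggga
Klf1: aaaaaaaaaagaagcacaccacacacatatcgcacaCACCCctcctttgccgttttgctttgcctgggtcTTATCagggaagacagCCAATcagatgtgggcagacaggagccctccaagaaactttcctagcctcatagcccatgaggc
In Hbb-bt, a CCAAT on each strand lies side by side with the other, at 80 and 75 bases before the start site. The GATAA of the 4 globins lies further upstream, from 182 bases before the start site in Hba-a1 to 209 in Hbb-bs. The Hba-a2 promoter is not printed because its 250 bases share an unbroken run of 247 with those of Hba-a1, whereas the longest run shared by the 2 beta promoters is 14 bases.

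The copies of each globin are nearly the same message, which limits how reads can be divided between them. The coding sequences of Hba-a1 and Hba-a2 are both 429 bases and differ at 1 base, C381T, counted from 1 at the A of the start codon with the Hba-a1 base first. Those of Hbb-bs and Hbb-bt are both 444 bases and differ at 1 base, C417T, with the Hbb-bs base first. The last 120 coding bases are shown 5′ to 3′ from the GENCODE transcripts of GRCm38, with the differing base in capitals.
Hba-a1: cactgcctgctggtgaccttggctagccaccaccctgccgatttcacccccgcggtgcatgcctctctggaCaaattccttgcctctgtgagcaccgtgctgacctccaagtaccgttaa
Hba-a2: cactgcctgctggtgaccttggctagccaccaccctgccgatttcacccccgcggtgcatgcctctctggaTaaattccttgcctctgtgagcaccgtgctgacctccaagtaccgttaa
Hbb-bs: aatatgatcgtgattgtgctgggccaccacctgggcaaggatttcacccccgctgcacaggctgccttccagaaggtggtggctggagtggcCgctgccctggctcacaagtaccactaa
Hbb-bt: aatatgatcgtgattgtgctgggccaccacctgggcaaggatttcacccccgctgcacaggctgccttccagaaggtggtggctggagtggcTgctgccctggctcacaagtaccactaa
The longest run that the 2 alpha transcripts share is 415 bases and that of the 2 beta transcripts is 430 bases, so the values of single copies are uncertain, and the main differences and levels are also given with the copies summed.

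The libraries held between 10292480 and 13787189 counts, 14761 genes had enough counts to be tested, and the biological coefficient of variation was 20.3%. CPM is counts over the library total, scaled to parts per 1000000 and adjusted between libraries by TMM (trimmed mean of M values). A gene was called when edgeR's quasi-likelihood test gave a Benjamini-Hochberg adjusted p below 0.05 over all tested genes and a fold above 2. That rule called 880 of the 14761 genes (5.96%), 440 higher in CD36+ NK (2.98%) and 440 lower (2.98%). The groups did not overlap in CPM in 4835 genes (32.8%). Cd36, the gene of the sorted marker, had 110, 263 and 238 CPM in CD36+ NK replicates 1 to 3 and 14.3, 31.7 and 17.1 CPM in CD36- NK. The names of the libraries do not give the sign of CD36 clearly, and none has a plus sign. Libraries titled CD36+ are named CD36--NK, and those titled CD36- are named CD36-NK or CD36- NK. The sample titles were followed, and these levels fit them. The libraries of replicate 1 in both fractions carry library names of another form (lower case) than those of replicates 2 and 3.

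All 4 globins and Alas2 rose in CD36+ NK relative to CD36- NK. Of the 8 members, 5 were called higher and 0 lower with edgeR, against 2.98% of all tested genes in each direction, and 6 passed an unadjusted p below 0.05. DESeq2 and edgeR's exact test each called 6 higher and 0 lower, where they called 4.42% and 4.9% of all tested genes higher. Their median log2 fold change was 1.84, against 0.01 over all tested genes. The 8 genes all passed the filter on low counts. In bulk RNA, fewer cells of a type and less RNA per cell cannot be told apart.

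**Figure D1:**
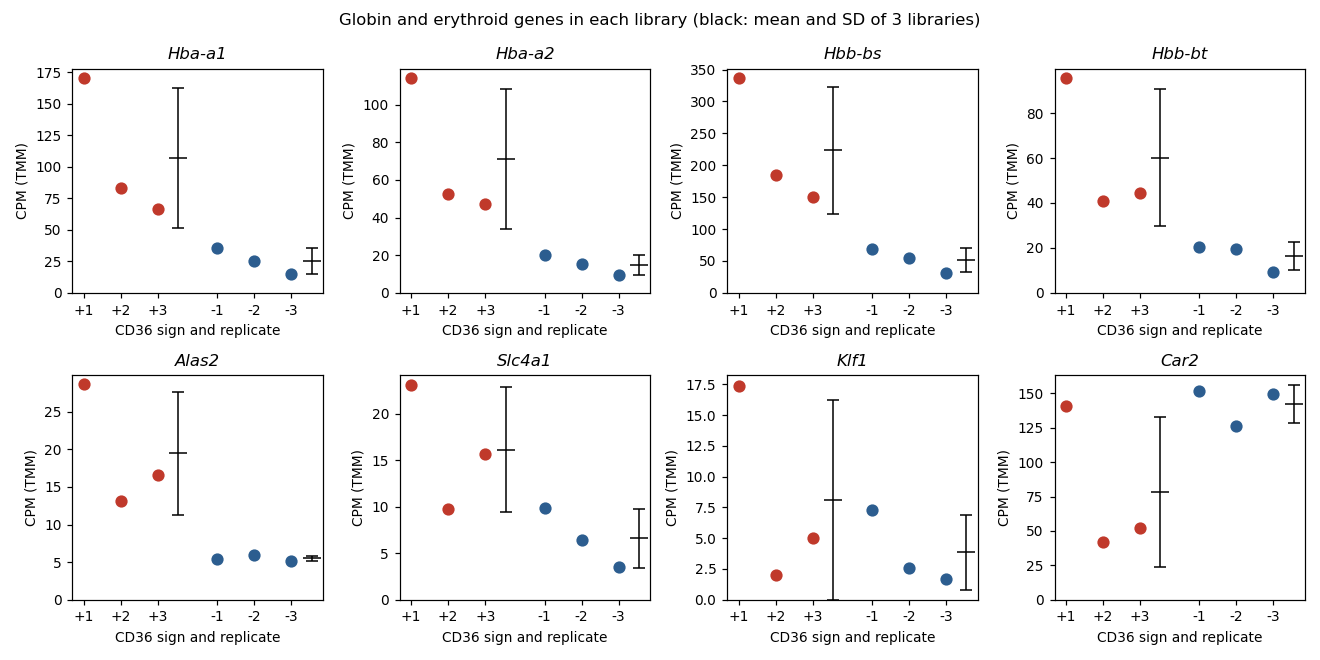
CPM of each of the 8 genes (vertical axis, linear, from 0) in the 3 CD36+ NK libraries (red) and the 3 CD36- NK libraries (blue), with the mean and SD of each group in black. In the 4 globins and Alas2 all red points lie above all blue points. The groups did not overlap, in either direction, in 32.8% of all tested genes. Replicate 1 is the highest of both groups in 7 of the 8 genes, against 17.0% of all tested genes.

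Hbb-bs, the more abundant of the adult beta globin copies, had 336, 184 and 150 CPM in CD36+ NK replicates 1 to 3 and 68.7, 55.3 and 31.1 CPM in CD36- NK. These were 3778, 2505 and 1800 counts against 894, 625 and 318. Every CD36+ NK library was above every CD36- NK library, and replicate 1 was the highest of both groups. The log2 fold change was 2.11 (SE 0.38, adjusted p = 0.0186 in edgeR), a fold of 4.31.

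Hbb-bt, the other adult beta copy, had 95.5, 40.8 and 44.3 CPM in CD36+ NK and 20.6, 19.5 and 9.38 CPM in CD36- NK. The groups were again apart, and CD36- NK replicates 1 and 2 nearly coincided. It rose by 1.86 on the log2 scale (SE 0.42, adjusted p = 0.0353 in edgeR). With the beta copies summed before the fit, it was 2.05 (SE 0.39, adjusted p = 0.0212).

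Hba-a1, an adult alpha globin, had 170.0, 83.3 and 66.8 CPM in CD36+ NK and 35.7, 25.4 and 14.9 CPM in CD36- NK. The lowest CD36+ NK library was above the highest CD36- NK library. It rose by 2.07 on the log2 scale (SE 0.43, adjusted p = 0.0281 in edgeR). Hba-a2, the second alpha copy, had 114.0, 52.4 and 47.4 CPM in CD36+ NK and 19.99, 15.1 and 9.47 CPM in CD36- NK. Its log2 fold change of 2.25 (SE 0.41, adjusted p = 0.0186 in edgeR) was the largest of the 8 genes, although the standard errors of the 4 globins overlap. With the alpha copies summed it was 2.14 (SE 0.42, adjusted p = 0.0237).

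The 4 globins together took 0.0724, 0.0356 and 0.0295% of all counts in CD36+ NK replicates 1 to 3 and 0.0147, 0.0119 and 0.00645% in CD36- NK. They were thus a small share of the RNA in both fractions. Their sum was 716, 361 and 308 CPM in CD36+ NK and 145, 115 and 64.8 CPM in CD36- NK. The mean log2 difference was 2.07, with an SD of 0.65 in CD36+ NK and 0.60 in CD36- NK (n = 3 each), a fold of 4.19. The exact two-sided permutation test gave p = 0.1, the smallest that 3 libraries against 3 allow, and 0.25 after adjustment over the 5 such tests made.

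Alas2, the erythroid form of the enzyme that starts heme synthesis, had 28.7, 13.2 and 16.5 CPM in CD36+ NK and 5.38, 5.92 and 5.18 CPM in CD36- NK. The CD36- NK libraries were close to each other, with an SD of 0.386 CPM, and all were under the lowest CD36+ NK library. Alas2 rose by 1.82 on the log2 scale (SE 0.30, adjusted p = 0.0133 in edgeR), the lowest adjusted p of the 8 genes. Alas2 was the only member in which replicate 1 was not the highest of CD36- NK.

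Slc4a1, the band 3 anion exchanger of the red cell membrane, had 23.1, 9.71 and 15.6 CPM in CD36+ NK and 9.84, 6.45 and 3.52 CPM in CD36- NK. The groups met at one point, since CD36+ NK replicate 2 was just under CD36- NK replicate 1. The log2 fold change was 1.28 (SE 0.43, 95% interval 0.27 to 2.29, adjusted p = 0.108 in edgeR) and did not pass the test. It passed with DESeq2 (adjusted p = 0.0227), with edgeR's exact test (adjusted p = 0.0356) and with the form of the library name as a block (adjusted p = 0.0393).

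Klf1, the transcription factor that activates adult beta globin, had 17.4, 1.99 and 4.99 CPM in CD36+ NK and 7.30, 2.56 and 1.66 CPM in CD36- NK. These came from 195, 27 and 60 counts against 95, 29 and 17. Replicate 1 was the highest library of each group and the groups overlapped. The log2 fold change was 1.05 (SE 0.83, 95% interval -0.92 to 3.01, adjusted p = 0.491 in edgeR). Without CD36+ NK replicate 1 it was -0.18, so its sign rested on that library.

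Car2, a carbonic anhydrase of red cells that other cell types also make, was the only member with a lower mean in CD36+ NK. It had 141, 41.8 and 52.0 CPM in CD36+ NK and 152, 126 and 149 CPM in CD36- NK. CD36+ NK replicate 1 lay among the CD36- NK libraries and the other two CD36+ NK libraries were well below them. The log2 fold change was -0.87 (SE 0.43, 95% interval -1.87 to 0.14, adjusted p = 0.254 in edgeR) and did not pass the test. Without CD36+ NK replicate 1 it was -1.62 (adjusted p = 0.0030) and was called lower.

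Per gene length, as FPKM (fragments over gene length and library total), Hbb-bs was the highest of the 8 genes in CD36+ NK, at 161 ± 75.7 (SD, n = 3). Hba-a1 followed at 88.9 ± 48.5, Hbb-bt at 85.0 ± 45.4, Hba-a2 at 67.5 ± 37.0 and Car2 at 25.4 ± 18.3. These neighbours in the order overlap within their SDs between libraries. Within every CD36+ NK library, though, Hbb-bs was above Hba-a1, Hbb-bt above Hba-a2 and Hba-a2 above Car2. Hba-a1 and Hbb-bt changed places between libraries. The copies summed had 246 ± 121 for beta and 156 ± 85.4 for alpha globins. In CD36- NK, Car2 had a mean of 47.1 ± 3.98, Hbb-bs of 38.0 ± 14.3 and the other globins means from 14.4 to 23.8. There the copies summed had 61.9 ± 23.2 for beta and 35.9 ± 14.1 for alpha globins, so that the place of Car2 in the order depends on whether the copies are counted together. Alas2, Slc4a1 and Klf1 had the lowest mean levels of both fractions, at 6.03, 3.01 and 3.93 in CD36+ NK and 1.74, 1.26 and 1.89 in CD36- NK.

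The number of calls changed with the libraries that entered, for these genes and for all genes. Without CD36- NK replicate 1, edgeR called 0 of the 8 genes (lowest adjusted p = 0.0503, 6 genes with an unadjusted p below 0.05), and without CD36- NK replicate 3 it also called 0 (lowest adjusted p = 0.0572, 5 genes with an unadjusted p below 0.05). Calls over all genes fell as well, from 5.96% to 2.8% and 2.82% of those tested. Without CD36- NK replicate 1 the log2 fold changes of the 4 globins were larger than with it, at 2.39 for Hba-a1, 2.52 for Hba-a2, 2.36 for Hbb-bs and 2.04 for Hbb-bt, and that of Alas2 was 1.80. Without CD36- NK replicate 3 those of the globins were smaller, at 1.80, 2.02, 1.85 and 1.58 in the same order, and that of Alas2 was 1.78. DESeq2 and the exact test were not run on these subsets. The test called 2 genes (Hba-a2 and Alas2) without CD36+ NK replicate 2 (2.81% of all genes), 3 genes without CD36- NK replicate 2 (7.59%), 4 without CD36+ NK replicate 3 (3.02%), and 6 without CD36+ NK replicate 1 (7.38%), Car2 among them. Over these fits and the other alternatives, the log2 fold change ran from 1.55 to 2.39 for Hba-a1, from 1.73 to 2.52 for Hba-a2, from 1.68 to 2.36 for Hbb-bs, from 1.35 to 2.08 for Hbb-bt and from 1.41 to 2.04 for Alas2. With the copies summed and each library left out, a combination added after the data were seen, it ran from 1.62 to 2.45 for the alpha and from 1.61 to 2.29 for the beta globins. Both sums lost their calls when replicate 2 of CD36+ NK or replicate 1 or 3 of CD36- NK was left out, with adjusted p-values from 0.0524 to 0.0776 in edgeR.

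The libraries whose names have the other form were often the highest of their group. Replicate 1 was the highest library of both groups in 7 of the 8 genes, and in 36 of the 65 genes tested when other erythroid genes are included (55.4%), against 2511 of all 14761 tested genes (17.0%). In CD36- NK the lead was small for Hbb-bt and Car2, and Alas2 was highest in replicate 2. Replicate 1 was 4.98 times the mean of replicates 2 and 3 in CD36+ NK and 3.46 times in CD36- NK for Klf1, and 2.01 and 1.59 times for Hbb-bs. Among genes of other erythroid lists, picked after their values were seen, these ratios were 7.74 and 3.93 for the red cell spectrin Sptb and 7.28 and 2.95 for the carbonic anhydrase Car1.

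Within each form of name the globins stayed higher in CD36+ NK. Between the 2 replicate 1 libraries the log2 difference was 2.23 for Hba-a1, 2.48 for Hba-a2, 2.28 for Hbb-bs, 2.19 for Hbb-bt and 2.31 for Alas2, with no replicates to test it. In a fit of replicates 2 and 3 only, the log2 fold changes were 1.88, 2.01, 1.94, 1.54 and 1.41 in the same order, with adjusted p-values of 0.0453, 0.0351, 0.0492, 0.0935 and 0.0457 from edgeR, so that Hbb-bt alone of these 5 lost its call. With the copies also summed, again added after the data were seen, it was 1.93 for the alpha (adjusted p = 0.0394) and 1.85 for the beta globins (adjusted p = 0.0551), of which the beta globins lost their call. Slc4a1 gave 1.19 and 1.32, and Klf1 1.19 and 0.70. Car2 differed by -0.11 between the replicate 1 libraries and by -1.57 in the fit of replicates 2 and 3 (adjusted p = 0.0261), where it was called lower.

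**Figure D2:**
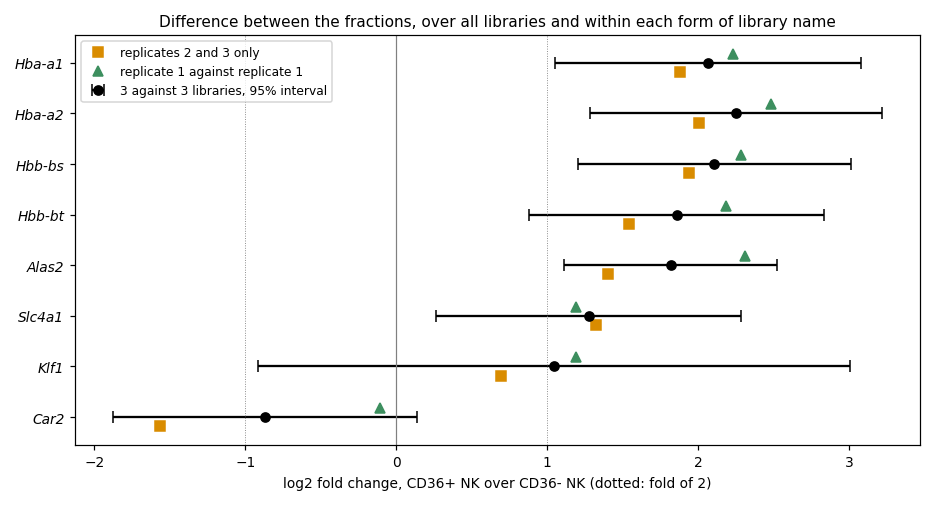
Log2 fold change of CD36+ NK over CD36- NK (horizontal axis) for the 8 genes, over all libraries with its 95% interval (black), for replicates 2 and 3 only (orange squares) and between the replicate 1 libraries (green triangles). The 4 globins and Alas2 lie between 1.41 and 2.48 in all 3 readings, while Car2 moves from -0.11 to -1.57.

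The ratios between globin counts within a library varied less than the summed globin level. The ratio of alpha to beta counts was 0.658, 0.603 and 0.589 in CD36+ NK and 0.624, 0.541 and 0.604 in CD36- NK. The groups overlapped, with a mean log2 difference of 0.06 (exact permutation p = 0.6). The ratio of Hba-a1 to Hba-a2 was 1.49, 1.59 and 1.41 against 1.79, 1.68 and 1.58, a mean log2 difference of -0.17 (exact permutation p = 0.2). The ratio of Hbb-bs to Hbb-bt was 3.52, 4.51 and 3.38 against 3.34, 2.83 and 3.31. These did not overlap, with a mean log2 difference of 0.26, but the gap between the nearest libraries was small and the exact permutation test gave p = 0.1, the smallest possible (0.25 adjusted over the 5 tests). The near-identical copies make these last ratios depend on how reads were divided.

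Not all erythroid genes kept a steady ratio to the globins, and the ratio was taken for a few genes only. Per 1000 globin counts, Alas2 had 40.0, 36.5 and 53.7 counts in CD36+ NK and 37.1, 51.4 and 79.8 in CD36- NK, which overlapped (mean log2 difference -0.33, exact permutation p = 0.6). The ratios that follow were chosen after the values were seen and were given no test. Slc4a1 had between 26.9 and 50.7 counts per 1000 globin counts in CD36+ NK against between 54.2 and 67.8 in CD36- NK, and Klf1 5.51 to 24.2 against 22.2 to 50.3. Ahsp, the chaperone of free alpha globin, had 7.34 to 21.1 against 33.1 to 51.4, and Car1 14.5 to 91.3 against 97.4 to 196. Relative to globin mRNA, the levels of Slc4a1, Ahsp and Car1 in CD36+ NK all lay under those in CD36- NK, Klf1 overlapped between the groups, and CD36+ NK replicate 2 had the lowest value of Slc4a1, Klf1, Ahsp and Car1.

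**Figure D3:**
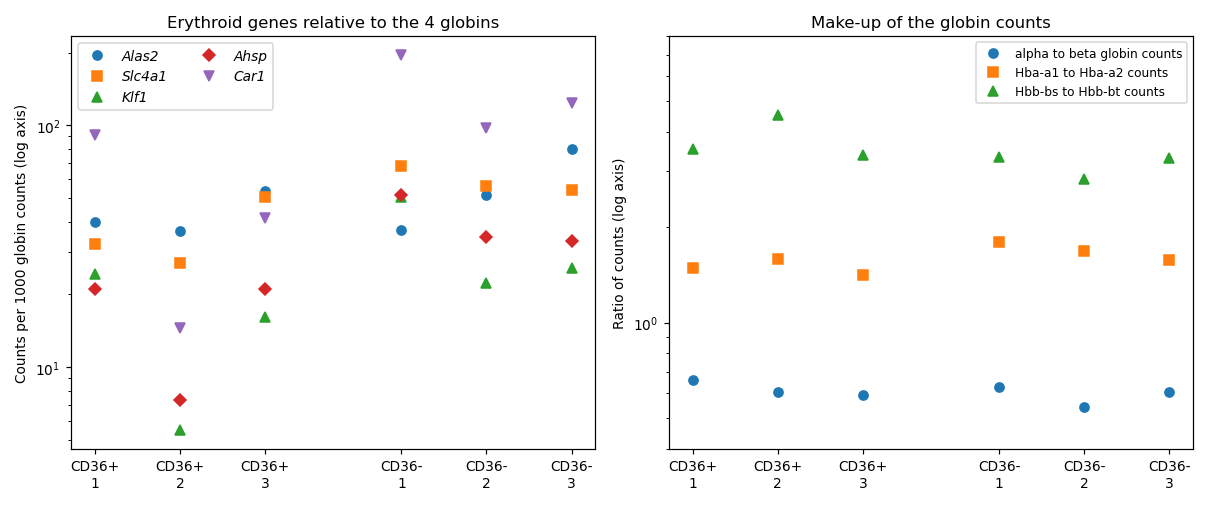
Counts of 5 erythroid genes per 1000 globin counts (left, log axis) and the ratios of alpha to beta, Hba-a1 to Hba-a2 and Hbb-bs to Hbb-bt counts (right, log axis) in each library. On the right alpha to beta runs from 0.541 to 0.658 and Hbb-bs to Hbb-bt from 2.83 to 4.51, and on the left Klf1 runs from 5.51 to 50.3.

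The wider erythroid programme was examined with 67 genes in 6 lists. Of these, 57 had enough counts to be tested, 45 were higher and 12 lower in CD36+ NK. The median log2 fold change was 0.45, against 0.01 over all tested genes. With replicates 2 and 3 only, 41 of the 56 genes tested in both fits were higher and 15 lower, and their median was 0.18, against 0.44 with all libraries. Gata1 moved from 1.07 to 0.27 and Car1, Sptb, Tal1 and Hemgn, picked after their values were seen, to -0.12, -0.08, -0.32 and -0.14. With all libraries, 3 were called higher (2.98% of all tested genes were) and 2 lower (2.98%).

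Other globins were scarcely measured. Hba-x, Hbb-y, Hbb-bh0 and Hbb-bh2, the embryonic and minor members of the 2 clusters, had 0 counts in all 6 libraries, for each of which 3 counts correspond to between 0.221 and 0.293 CPM. Hbq1a had 2 counts and Hbq1b 4, all in CD36+ NK. Hbb-bh1, another embryonic beta-like gene, had 11, 9 and 14 counts in CD36+ NK and 11, 6 and 3 in CD36- NK. Its log2 fold change of 0.70 did not pass the test (SE 0.47, adjusted p = 0.404 in edgeR). Ahsp had 170, 36 and 78 counts against 97, 45 and 22, with a log2 fold change of 0.81 (SE 0.67, adjusted p = 0.504). Of these 8 genes, edgeR tested 2 and called 0, DESeq2 and the exact test also called 0, and 0 had an unadjusted p below 0.05.

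Among 11 erythroid transcription factors, 6 were higher and 5 lower, with a median log2 fold change of 0.12, and 1 was called. Zfpm1, the GATA cofactor also known as FOG1, fell by 1.23 on the log2 scale (adjusted p = 0.0041 in edgeR), with 37.6, 43.3 and 44.1 CPM in CD36+ NK and 102, 79.8 and 111 CPM in CD36- NK. Sox6, a repressor of embryonic globins, had a log2 fold change of -1.65 (adjusted p = 0.0501) from 6 to 32 counts a library, and was called by DESeq2 and the exact test. Ldb1, a partner of the GATA1 complex, had -0.27 (adjusted p = 0.113). Bcl11a, a globin repressor that B cells also make, rose by 0.53 (adjusted p = 0.0257), under the fold of 2. Gata1, the main erythroid GATA factor, had 160, 35 and 36 counts against 61, 22 and 27, and its log2 fold change of 1.07 did not pass (adjusted p = 0.399). Gfi1b, a repressor of the erythroid and platelet lines, gave 0.92 (adjusted p = 0.414).

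Of the 12 genes of heme synthesis and mitochondrial transport, 8 were higher and 4 lower, with a median of 0.20. None was called by edgeR (0, with 2 at an unadjusted p below 0.05), DESeq2 (0) or the exact test (0). Tmem14c, which carries a heme precursor in mitochondria, rose by 0.59 (adjusted p = 0.0423), and the mitochondrial iron importer Slc25a37 by 0.43 (adjusted p = 0.0492), both under the fold of 2. The glycine importer Slc25a38 gave 0.18 (adjusted p = 0.286). The enzymes Alad and Urod gave -0.39 and -0.11 and the transporter Abcb10 -0.20, with adjusted p-values of 0.194, 0.762 and 0.476. The largest of these values, 0.59, was below the 1.82 of Alas2, and that difference was not tested.

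Of 16 genes of the red cell membrane and its skeleton, 14 were tested, 13 were higher and 1 lower, with a median of 0.72. edgeR called 0, with 3 at an unadjusted p below 0.05, DESeq2 called 0 and the exact test 1, Epb42. Epb42, the band 4.2 protein that binds band 3, had 39, 23 and 43 counts in CD36+ NK and 22, 9 and 8 in CD36- NK, with a log2 fold change of 1.38 (adjusted p = 0.0957). Gypc, a glycophorin that many blood cells carry, gave 0.35 (adjusted p = 0.156). The skeletal linker Epb41, at a mean of 188 and 231 CPM, gave -0.30 (adjusted p = 0.0849).

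Of 14 late erythroid genes and red cell enzymes, 13 were tested, all 13 had a log2 fold change above 0, and 2 were called higher, with a median of 0.60. Blvrb, biliverdin reductase B, rose by 1.25 (adjusted p = 0.0373), with 74.0, 70.0 and 128 CPM against 46.8, 40.1 and 27.4. Catalase, Cat, rose by 0.60 (adjusted p = 0.0357), under the fold of 2.

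Of 6 genes of erythropoietin and iron uptake, 5 were tested. Epor, the erythropoietin receptor, rose by 2.08 (SE 0.32, adjusted p = 0.0107), with 11.7, 7.43 and 14.0 CPM in CD36+ NK and 2.84, 3.18 and 1.76 CPM in CD36- NK. Kit, the stem cell factor receptor of progenitors and mast cells, fell by 1.15 (adjusted p = 0.0191), with 29.9, 28.6 and 30.8 CPM against 45.4, 69.1 and 83.2. The transferrin receptors Tfrc and Tfr2 gave 0.24 and 0.69 and the ferrireductase Steap3 -0.49, with adjusted p-values of 0.301, 0.606 and 0.331. With replicates 2 and 3 only, Epor, Blvrb and Zfpm1 had log2 fold changes of 2.09, 1.54 and -1.13 but lost their calls, with adjusted p-values of 0.0886, 0.0929 and 0.0503 in edgeR.

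**Figure D4:**
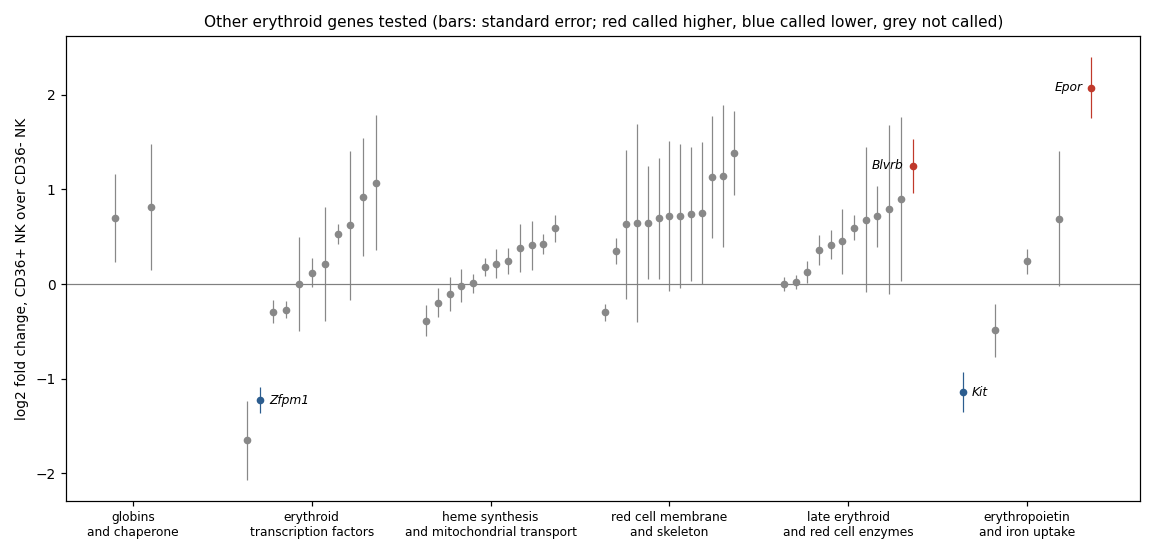
Log2 fold change of CD36+ NK over CD36- NK with its standard error (vertical axis) for the tested genes of 6 erythroid lists that are reported here, in order of size within each list. Blvrb and Epor (red) were called higher and Zfpm1 and Kit (blue) lower, and the other genes (grey) were not called.

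Markers of other cell types moved between the same libraries, and their part in the globin result was not tested. The 9 NK cell markers were all called lower, with a summed level of 948 to 1150 CPM in CD36+ NK and 4966 to 6440 CPM in CD36- NK, led by Gzma and Il2rb. The macrophage and Kupffer cell list had 8 of 10 genes tested and 3 called higher by edgeR (8 at an unadjusted p below 0.05) and 7 by DESeq2 and by the exact test, with a median of 2.90, led by Csf1r and C1qb. Its sum was 2251, 3500 and 5584 CPM in CD36+ NK replicates 1 to 3 and 553, 1366 and 364 CPM in CD36- NK. The sum was higher in every CD36+ NK library than in the CD36- NK libraries, as was that of the globins. Within CD36+ NK it was lowest in replicate 1, where the globins were highest, and within CD36- NK it was lowest in replicate 3, where the globins were lowest too. Clec4f, which defines Kupffer cells, had 17, 624 and 0 counts in CD36+ NK and 0 in all CD36- NK libraries. Timd4 had 93, 199 and 284 counts in CD36+ NK and 15, 50 and 0 in CD36- NK, and Vsig4 10, 181 and 6 against 0, 3 and 0.

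The platelet and megakaryocyte list, which shares GATA1 and GFI1B with the erythroid line, had 6 of 10 genes tested, of which 4 were higher and 2 lower. Pf4 and Ppbp were called higher by edgeR and by the exact test, and Ppbp alone by DESeq2. The list had a summed level of 17.0 to 33.0 CPM in CD36+ NK and 19.5 to 21.7 CPM in CD36- NK. Its most abundant genes were Itga2b, with a log2 fold change of -0.43 (adjusted p = 0.351), and Ppbp. The basophil and mast cell list, led by Prss34 and Hdc, had a median of -1.34, with 0 of 7 called by edgeR (4 at an unadjusted p below 0.05) and 3 called lower by DESeq2 and by the exact test. Its sum was 96.1, 32.9 and 36.3 CPM in CD36+ NK and 126, 113 and 61.0 CPM in CD36- NK, highest in replicate 1 of both groups. The sinusoidal endothelial list, led by Dnase1l3 and Stab2, had 1 of 3 tested genes called higher by edgeR and 2 by DESeq2 and by the exact test, and a sum of 93.4 to 190 CPM against 20.4 to 50.8 CPM. The B cell list, led by Cd79a, had a median of 0.51, with 0 of 6 called by edgeR (5 at an unadjusted p below 0.05), DESeq2 or the exact test, and a sum of 4145 to 4654 CPM against 2823 to 3310 CPM.

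The genes most like the summed globins were sought among the tested genes outside the 8 members. The measure was the root mean square difference of log2 CPM, centred over the 6 libraries. Before the log, 0.5 CPM was added to each gene but not to the globins, which shrinks the differences of genes with few counts. The closest were Saa3, an acute phase protein (0.193), Clec4d, a C-type lectin of myeloid cells (0.2001), and the chemokines Ccl24 (0.275) and Cxcl1 (0.283), followed by the complement receptor C5ar1 (0.298). The order depends on the added 0.5 CPM. The fitted log2 fold changes of Saa3, Ccl24 and Cxcl1 were 2.68, 3.03 and 3.26, and those of Clec4d and C5ar1 were 2.11 and 1.69. The mean log2 difference of the summed globins was 2.07. Clec4d had 15.9, 8.09 and 5.65 CPM in CD36+ NK and 2.92, 2.30 and 1.56 CPM in CD36- NK. Saa3 had 95, 33 and 29 counts in CD36+ NK and 14, 8 and 2 in CD36- NK. No gene of the other erythroid lists was among these 5, and the 8 members, Alas2 included, could not be. The list describes 6 libraries and is not a test.

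**Figure D5:**
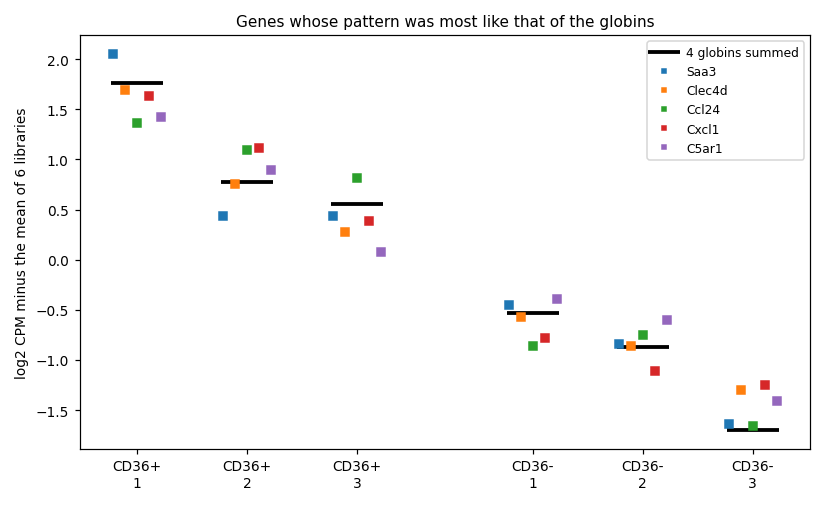
Log2 CPM minus the mean over the 6 libraries (vertical axis) for the 4 globins summed (black bars) and 5 other genes (coloured squares, set side by side). These are the 5 most like the globins outside the 8 members, with 0.5 CPM added before the log. All squares of CD36+ NK lie above those of CD36- NK, and each gene is highest in CD36+ NK replicate 1, with a root mean square difference from the bars of 0.193 for Saa3 and 0.298 for C5ar1.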

How the data were processed

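The authors filtered reads with Seqtk, mapped them with HISAT2 2.0.4 and counted fragments per gene with StringTie. The deposited counts were not normalized. The deposited FPKM values were the authors' counts over gene length and library total, proportional within 1% in 100% of 7439 genes with over 200 counts in every library, and served for levels between genes only. The processing notes name mRatBN7.2, a rat build, although the genes are mouse Ensembl genes, so the table's coordinates are not given. The lines of 2 genes were broken and were rejoined. Library names do not give the sign of CD36 clearly, and the sample titles were followed.

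The counts were tested with edgeR 4.0.16 in R 4.3.3 (filterByExpr with a minimum count of 10, TMM, quasi-likelihood F-test, no block), which left 14761 of 27171 genes with a count. The standard error is the log2 fold change over the root of F. Ratios had 0.5 counts added and CPM 0.5 on the log2 scale. Permutation tests used scipy 1.17.1. The 95% intervals come from the fit, and the 3-count floor of a library covers counting error only. Libraries of 1 group differed beyond sampling noise. On simulated counts of 14761 genes for this comparison, 65 of 100 genes at a fold of 2 and 99 of 100 at a fold of 4 were recovered, and 16 unchanged genes passed. Every simulated gene had the common variation of 20.3%, and the adjusted p was counted without the fold rule. The summed globins spread more, with SDs of 0.65 and 0.60 on the log2 scale, so recovery of such genes was not measured. Other settings tried were the exact test of edgeR, DESeq2 1.42.0, other scalings and filters, no fold threshold, blocks, summed paralogs and left-out libraries.

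The members, the lists and the tests were chosen with earlier results of these data known. The named genes are the members, Cd36, all genes of the first list, the 3 of lowest p in each direction of the other erythroid lists, the 2 most abundant of each marker list and the 5 most like the globins. Others were named after their values were seen. Some genes that this rule names are not reported here. Promoters of Slc4a1 and Car2 are not shown here.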

Additional observations from a re-analysis of the deposited data

How the results depend on the processing

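The members were called as reported under all scalings, both filters on low counts, no fold threshold and globins left out of the library sizes. The count of called members was 3 of 6 with the paralogs summed, which has fewer genes by construction, and 0 to 6 of 8 with each library left out. With no fold threshold, 1552 genes of all tested and 9 of the other erythroid genes were called. With replicates 2 and 3 only, 433 and 3 were called. With each library left out, 417 to 1160 genes of all tested and 3 to 6 of the other erythroid genes were called. The counts over all genes fell to 417 and 431 when replicates 1 and 3 of CD36- NK were left out, and to 418 and 451 when replicates 2 and 3 of CD36+ NK were. All of these but the first left 3 other erythroid genes called. Fewer libraries entered these fits. A replicate block by title number gave 560 called genes of all tested (880 without it), 5 members and 4 other erythroid genes. Same-numbered libraries deviated from their group means with correlations of 0.34, 0.07 and -0.08, so the numbers were not taken as pairs. The log2 fold change of Klf1 was -0.18 without CD36+ NK replicate 1 and ran up to 1.92 with another library left out. The log2 difference of the summed globin level ran from 1.70 to 2.31 with each library left out. That of the alpha to beta ratio went from 0.064 to 0.0039 without CD36- NK replicate 2, and that of the Alas2 to globin ratio from -0.33 to -0.04 without CD36- NK replicate 3. With 3 libraries in a group, the exact permutation test cannot pass 0.05, and a gene such as Klf1, with 17 to 195 counts and a large spread, had a wide interval.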

Other observations

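Among other genes set against the globins, the erythropoietin receptor Epor had 16.4, 20.6 and 45.3 counts per 1000 globin counts in CD36+ NK and 19.6, 27.6 and 27.1 in CD36- NK. The ranges overlapped between the fractions. Clec4d, a myeloid lectin, had 22.3, 22.4 and 18.3 counts per 1000 globin counts against 20.1, 19.9 and 24.1. Saa3 had 11.8, 6.73 and 7.82 against 7.42, 6.135 and 3.01. The highest library was 1.31 times the lowest for Clec4d and 3.92 times for Saa3. These genes were chosen after their values were seen, and no test was made.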
